A study of Mus musculus with 12 samples.

Results

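Histone modifier and chromatin remodeller genes were followed by ATAC-seq, which reads chromatin accessibility from the sites where the Tn5 transposase inserts adapters, in mouse granulocyte-monocyte progenitors that carry ER-HOXA9. The gene families were taken by symbol: lysine demethylases (Kdm), lysine methyltransferases (Kmt, Setd), deacetylases (Hdac, Sirt), lysine acetyltransferases (Kat), DNA methylation genes (Tet, Dnmt), bromodomain proteins (Brd) and ATP-dependent remodellers (Chd, Smarc). Kdm1a, which encodes LSD1 itself, and Hdac1 and Hdac2 were left out by this rule. The members are the genomic regions that the authors' deposited tables of changed regions assign to these genes. They come to 161 regions of 85 genes, against 73156 regions called in at least 1 library, and they fill 175 of the 30120 rows of the 4 tables used. The table for 6MP was not used. Of 98 protein-coding genes with such symbols in RefSeq, 15 had no row in these tables, among them Kdm5a, Kmt2d, Setdb1, Hdac8 and Smarcc2.

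The 12 libraries were in 6 groups of 2 biological replicates. The Combo group received GSK-LSD1, mercaptopurine and cerulenin together. The LSD1i group received 200 nM GSK-LSD1, an LSD1 inhibitor. The 6MP group received 5 uM mercaptopurine, a purine analogue, and the CER group received 5 uM cerulenin, a fatty acid synthesis inhibitor. The Vehicle group received DMSO, and all 5 of these groups were taken after 2 days. The Day0 group was untreated and taken at the start, on day 0. All groups share the C57BL6 background, the ER-HOXA9 fusion and culture with stem cell factor and 0.5 uM beta-estradiol. The fusion keeps HOXA9 active while estradiol is present, so every group is a progenitor held in an engineered state, and no group is a normal progenitor.

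Chromatin regulators set, remove and read the marks that keep genes open or shut. Lysine methyltransferases and demethylases write and erase histone methylation, acetyltransferases and deacetylases do the same for acetylation, bromodomain proteins bind acetylated lysines, and the SWI/SNF and CHD remodellers move nucleosomes with energy from ATP. LSD1 removes methyl groups from histone H3 lysine 4 and, in myeloid cells, is known to work with the repressor GFI1 at enhancers. Many genes of these families, Tet2, Dnmt3a and Kmt2a among them, are known from acute myeloid leukaemia, where they are mutated or rearranged.

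The starts of 4 of these genes are printed because the results below turn on them: the start regions of Smarca2, Hdac4, Kmt5b and Kat8 were all listed as less accessible with LSD1i, while other regions of the first 3 genes were listed as more accessible. The sequences come from promoter windows of RefSeq on GRCm38.p6 (mm10), written 5′ to 3′ on the gene's strand, each inside the listed region. Only the 250 bases before the start are printed, and GC content and motifs below were read in these 250 bases. The Hdac4 window is at an internal start of the gene. Another Kat8 window in the same region, with a C/EBP and an AP-1 match, is not printed. Capitals mark matches to a C/EBP motif (TTNCNNAA) in Smarca2 and Kat8 and to the GFI1 core (AATCNNNG) in Kmt5b, on either strand, and the printed matches do not overlap each other. The windows are chr19:26604910-26605159 on the plus strand for Smarca2, chr1:92180342-92180591 on the minus strand for Hdac4, chr19:3767639-3767888 on the plus strand for Kmt5b and chr7:127912267-127912516 on the plus strand for Kat8.
Smarca2: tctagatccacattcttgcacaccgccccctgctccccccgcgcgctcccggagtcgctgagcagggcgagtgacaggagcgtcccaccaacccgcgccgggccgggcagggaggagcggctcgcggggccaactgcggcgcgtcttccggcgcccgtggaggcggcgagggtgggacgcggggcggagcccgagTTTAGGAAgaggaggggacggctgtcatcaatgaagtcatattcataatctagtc
Hdac4: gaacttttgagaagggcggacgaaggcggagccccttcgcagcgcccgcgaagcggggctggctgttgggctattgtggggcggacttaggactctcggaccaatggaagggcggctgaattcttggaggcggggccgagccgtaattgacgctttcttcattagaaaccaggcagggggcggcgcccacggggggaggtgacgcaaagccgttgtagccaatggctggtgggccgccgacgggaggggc
Kmt5b: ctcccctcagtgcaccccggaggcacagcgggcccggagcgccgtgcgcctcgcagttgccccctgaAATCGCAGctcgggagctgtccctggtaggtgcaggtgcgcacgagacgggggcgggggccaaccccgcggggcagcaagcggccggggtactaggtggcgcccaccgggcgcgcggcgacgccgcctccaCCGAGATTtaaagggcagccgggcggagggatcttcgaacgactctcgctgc
Kat8: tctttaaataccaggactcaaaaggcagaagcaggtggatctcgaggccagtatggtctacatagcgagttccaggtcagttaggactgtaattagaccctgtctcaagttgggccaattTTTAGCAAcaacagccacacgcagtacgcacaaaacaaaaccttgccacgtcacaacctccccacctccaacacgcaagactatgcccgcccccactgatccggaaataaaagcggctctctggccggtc
The Hdac4 window held none of the 8 motifs searched. In all, 59 of the 161 regions held a RefSeq promoter window of their own gene, 74 windows of 56 genes, and each of these 74 windows lies in a region listed as less accessible with LSD1i. The median GC content was 63.6% over these windows and 52.4% over all 32851 promoter windows. The C/EBP motif was in 24.3% of the members' windows and in 36.8% of all windows. The GFI1 core was in 24.3% of the members' windows and in 28.2% of all, the ETS motif (GGAAGT) in 13.5% and 19.7%, RUNX (TGTGGT) in 9.46% and 14%, and the letters AGATAA of GATA factors in 6.76% and 9.99%. AP-1 (TGANTCA) was in 8.11% of the members' windows and 6.75% of all, NRF1 (CGCATGCG) in 5.41% and 1.55%, and CRE (TGACGTCA) in 0% and 1.55%. With 74 windows several of these shares rest on few matches: NRF1 was found in 4 windows, GATA in 5 and AP-1 in 6. The shares are a description without a test, and a match is only these letters in the window.

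The libraries held 42651 to 56398 called peaks each, with a median fragment pileup at the summits of 50 to 75. The highest summit of each region called in all 12 libraries was divided by the library's background. The median was 16.9 in 6MP replicate 1 and 23.0 in CER replicate 2, against 28.3 to 42.7 in the other libraries. Of 10 promoters of granulocyte-monocyte progenitor genes, 8 had a peak in all 12 libraries, and the other 2, of Elane and Prtn3, had a peak in none. Promoters of other lineages were mixed: a peak in all 12 libraries was found for none of 4 T cell promoters, 1 of 2 B cell promoters (Cd79a), 3 of 6 erythroid and megakaryocyte promoters (Epor, Itga2b and Pf4) and 2 of 4 dendritic cell promoters (Flt3 and Batf3). Of the 161 regions, 128 carried a called peak in every library, and 33368 of all 73156 regions did. A lower peak can come from fewer cells with the site open or from less opening per cell, which cannot be told apart in these bulk libraries.

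The deposited tables hold only rows at a false discovery rate (FDR) of 0.05 or less, with the authors' mean log2 levels and log2 folds. Being in a table is therefore itself a result of that contrast, and the counts and folds that follow are a description of it. LSD1i against Vehicle gave 146 rows of 83 genes, of which 9 were more accessible with LSD1i (opened) and 137 less accessible (closed). How many regions each table tested was inferred from the ratio of its FDR to its p-values at each rank, and differs by table. Of about 51616 regions tested, 6.82% were listed as opened and 34.3% as closed. The members' median log2 fold was -0.47 and that of the whole table was -0.45. The fall at these genes is thus of the size found across the table, and 7 of the 146 rows had a fold past 1 on the log2 scale in either direction.

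Combo against Vehicle gave 27 rows of 18 genes, with 20 opened and 7 closed. Of about 53230 regions tested, 12.8% were listed as opened and 2.15% as closed in that table. The opened rows had a median log2 fold of 0.96, and all opened rows of the table had 0.98. Most LSD1i rows were thus closed and most Combo rows opened, among these genes as in the whole tables. The 12 member regions in both tables did not turn round: they had the same sign in both, 6 of them opened. LSD1i and Combo were each set against the same Vehicle libraries. The recovered signal, described below, was centred on each library's median. In it, 121 of 137 member regions were lower with LSD1i (median log2 difference -0.21) and 121 of 143 with Combo (median -0.18). Over all regions 54.3% were lower with LSD1i (median -0.04) and 62.4% with Combo (median -0.09). Most members were listed as closed for LSD1i, and of all rows listed so 95.8% and 90.1% were lower. The same libraries chose the members, so these counts are a description. The scaling of the tables is not given in the sources used here. Scaling the recovered pileups by depth alone moved the median of all regions by -0.16 for LSD1i and by 0.22 for Combo, both against Vehicle, and the part of such shifts in the counts was not tested.

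The other 2 tables held almost none of these genes. Vehicle against Day0 listed only the promoters of Brd2, a BET family reader of acetylated histones, and Setd5, a SET domain protein, among the members. Both had a log2 fold of 0.21, with FDR values of 0.00131 and 0.00959. Of about 39843 regions tested, 1.80% were listed as opened and 0.0678% as closed there. CER against Vehicle listed no member region. Of about 47142 regions tested, that table listed 0.00636% as opened and 0.358% as closed. All 172 rows of that table had an absolute log2 fold above 1, while the other 3 tables also hold smaller folds.

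**Figure D1:**
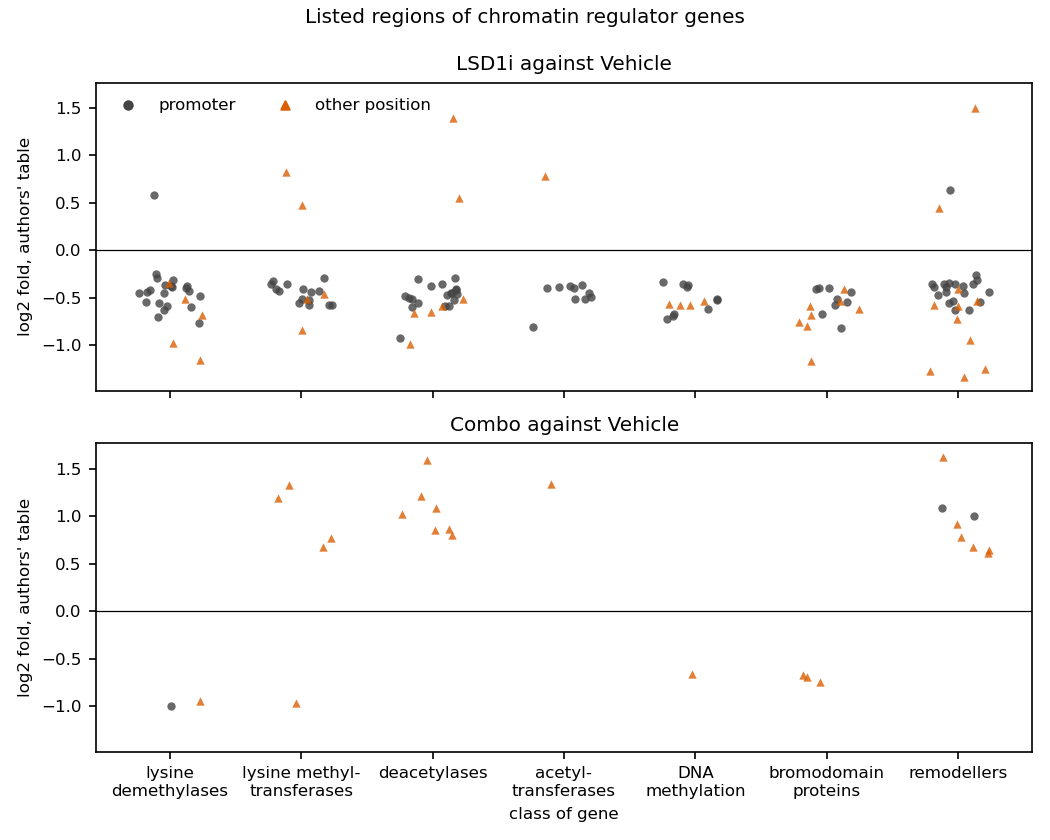
The authors' log2 fold of each listed member region, by gene class, for LSD1i against Vehicle (top) and Combo against Vehicle (bottom). Circles are promoter regions and triangles other positions. Most LSD1i points lie below 0 and are promoters, while 20 of the 27 Combo points lie above 0.

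Closed rows were in the majority in every class with LSD1i, as in the whole table, where 17729 of 21247 rows were closed. The demethylases had 1 opened and 26 closed rows with a median log2 fold of -0.45, and the methyltransferases had 2 opened and 18 closed rows with a median of -0.43. The deacetylases had 2 and 24 with a median of -0.49, and the acetyltransferases had 1 and 10 with a median of -0.40. The DNA methylation genes had 0 and 14 with a median of -0.55, and the bromodomain proteins had 0 and 17 with a median of -0.58. The remodellers had 3 opened and 28 closed rows with a median of -0.44. The class medians thus lay on both sides of that of the whole table. Since a region had to be listed to be a member, these counts are a description of the listing.

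Among the largest falls with LSD1i in the authors' deposited table were regions away from promoters. A region in intron 3 of Chd9, a CHD remodeller, at chr8:90939951-90941158 had a log2 level of 6.96 with LSD1i and 8.29 with Vehicle, a fold of -1.33. An exon of Chd1, a remodeller linked to transcribing polymerase, had a fold of -1.27, and a distal region of Chd7 at chr4:8897816-8898456 had -1.25. A region assigned to Kdm5c, an H3 lysine 4 demethylase, had -1.15, and it lies in an intron of a neighbouring gene. The 103 closed promoter rows had a median of -0.45 with a range from -0.92 to -0.25, and the 17 closed intron rows had a median of -0.59.

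Promoters made up 75.2% of the members' closed rows for LSD1i, and 62.7% of all closed rows of that table. Among the best supported were the promoters of Brd2, at 13.56 with LSD1i and 13.96 with Vehicle on the log2 scale (FDR 1.97e-29), and of Setd5, at 13.09 and 13.52 (FDR 8.67e-21). Both promoters are also in the Vehicle against Day0 table, which shares the Vehicle libraries. The promoter of Kmt5a, the H4 lysine 20 monomethyltransferase, stood at 12.33 with LSD1i and 12.90 with Vehicle (FDR 2.04e-15). These regions are among the most open of the table, and their folds are smaller than those of the weak intronic regions above.

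Counted by gene, 81 of the 98 protein-coding genes had a closed row for LSD1i (82.7%), against 41.7% of 21900 protein-coding genes. Of the 98 genes, 90 were nearest to at least 1 region called in all 12 libraries. Among genes of that kind, 78 of 90 members (86.7%) and 62.0% of 13746 genes had a closed row for LSD1i. In the same genes 6.67% of members and 8.48% of all had an opened row. For Combo, 12.2% of these member genes and 15.6% of all had an opened row, and 7.78% and 4.52% had a closed row. A list of 84 other chromatin genes (Polycomb, trithorax partners, readers, coactivators and other remodellers) had closed rows for 71 genes with LSD1i (84.5%), close to the members. With Combo, 11 of these 84 had an opened row (13.1%) and 4 a closed row (4.76%).

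The regions that opened with Combo lay away from gene starts. Promoters made up 10% of the members' 20 opened rows and 21.2% of all opened rows of the table. The deacetylases gave 7 of them with no closed row, the remodellers 8 with no closed row, the methyltransferases 4 with 1 closed, and the acetyltransferases 1. The demethylases gave 2 closed rows only, the bromodomain proteins 3 and the DNA methylation genes 1. Hdac4, a class IIa deacetylase that shuttles between nucleus and cytoplasm, gave 4 opened rows, with log2 folds of 1.59, 1.02, 0.87 and 0.86. Chd7 gave 3, with 1.0, 0.92 and 0.68. Kat5, the TIP60 acetyltransferase, gave a distal region with 1.34, Kmt2c, an H3 lysine 4 methyltransferase of enhancers, gave 1.33 and 0.68, and Hdac9 gave 1.21 and 0.80.

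The closed Combo rows were at Kdm4b (-1.0) and Kdm2a (-0.94), both demethylases, at the 3′ UTR of Kmt2e (-0.97), at Brd3 (-0.74), Brd2 (-0.69) and Brd9 (-0.67), and at a distal region of Dnmt3a (-0.66), the de novo DNA methyltransferase. The rows nearest the 0.05 limit were Kmt2c for Combo, at 0.68 with FDR 0.0397, and Chd9 for LSD1i, at -0.53 with FDR 0.0484. Regions of the same genes stood side by side in both tables, which share the Vehicle libraries: Smarca2 intron 5 had 1.62 for Combo and 1.5 for LSD1i, the Brd9 exon -0.67 and -0.80, and the Brd3 intron -0.74 and -0.68.

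Single genes held regions of both directions. Of 13 genes with an opened row, 11 also had a closed row: Chd7, Chd9, Hdac4, Hdac9, Kat5, Kat6b, Kdm2b, Kmt5b, Sirt6, Smarca2 and Smarce1. The exceptions were Kmt2c and Setd3, which had opened rows only. Nearly all member genes had a closed row, 83 of 85 for LSD1i alone, so this count is no trait of the genes with opened rows. The same share over all genes was not counted. In Smarca2, which encodes the SWI/SNF ATPase BRM, the start region chr19:26604586-26607830 stood at 12.99 with LSD1i and 13.38 with Vehicle, a log2 fold of -0.39. Intron 5 of the same gene, 41.2 kb from the RefSeq start, had a fold of 1.5 in the same table. In Hdac4 the region at the RefSeq start had -0.92, the region of the printed window, an internal start 15.3 kb into the gene, had -0.50, and regions at -55.2 and +112.8 kb from the RefSeq start had 1.39 and 0.55. In Kmt5b, an H4 lysine 20 methyltransferase, the start had -0.41 and regions at -20.5 and -13.5 kb had 0.82 and 0.48. In Smarce1, the BAF57 subunit of SWI/SNF, the start had -0.44 and a region at +41.7 kb had 0.45. These 4 genes were picked for this pattern, and others did not show it. Chd7 had closed LSD1i regions at +84.7, +121.0 and +207.7 kb (-0.41, -0.59 and -1.25) and Hdac9 at +484.4 kb (-0.65), while Kdm2b had an opened promoter row (0.58) beside closed promoter rows.

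**Figure D2:**
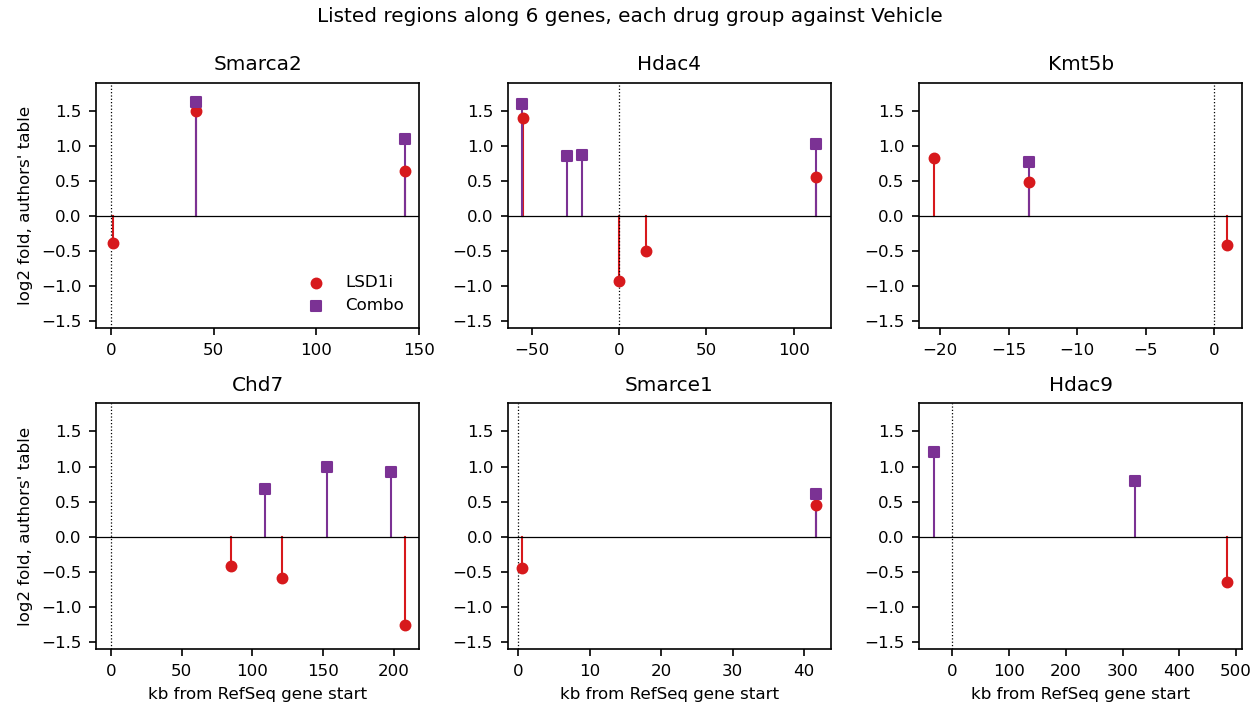
The authors' log2 folds of listed regions (vertical) by distance in kb from the RefSeq gene start (horizontal, positive in the direction of the gene) in 6 genes. Circles are LSD1i and squares Combo, each against Vehicle, and the dotted line is the start. In Smarca2, Hdac4, Kmt5b and Smarce1 the points at the start, and the internal Hdac4 start, lie below 0 and the other points above 0, while the LSD1i points of Chd7 and Hdac9 lie below 0 far from the start.

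Levels in single libraries were recovered from the deposited peak lists, as the summit pileup over the library's background, divided by the library's median over regions called in all 12. A relative signal of 1 is thus that median. Coordinates below are those of the listed row, and its values are those of the merged region that holds it. A linear model (limma) was fitted to its log2 values over all regions, with Benjamini-Hochberg adjustment, and a region was called at an adjusted p of 0.05 or less. For LSD1i against Vehicle 137 member regions could be tested, of which 6 were opened and 5 closed. Over all tested regions 3.82% were opened and 2.00% closed. An unadjusted p under 0.05 was found for 35 of the 137 and for 20.1% of all regions. For Combo against Vehicle, 6 of 143 were opened and 4 closed, and over all tested regions 4.79% were opened and 2.93% closed. An unadjusted p under 0.05 was found for 33 of the 143 and for 20.3% of all regions. These fits use the libraries behind the tables, so the calls and adjusted p-values describe the listed regions and are no independent test of them. With pileups scaled by depth in place of median centring, LSD1i had 1 opened and 0 closed and Combo 2 opened and 0 closed. The counts also rest on single libraries: without Vehicle replicate 1 there were 4 calls for LSD1i and 6 for Combo, without LSD1i replicate 1 or 2 there were 4 or 2 for LSD1i, and without Combo replicate 1 or 2 there were 6 or 3 for Combo.

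The clearest gain was in intron 5 of Smarca2, at chr19:26645928-26646626. Its relative signal was 0.994 and 1.07 in the Combo libraries and 0.966 and 1.49 in the LSD1i libraries, against 0.308 and 0.486 in the Vehicle libraries. It was 0.608 and 0.346 with 6MP, 0.203 and 0.371 with CER, and 0.295 and 0.301 at Day0. All 4 libraries with GSK-LSD1 lay above all 8 without it. The log2 difference was 1.41 ± 0.27 for Combo (SE, adjusted p = 8.32e-04, limma) and 1.63 ± 0.27 for LSD1i (adjusted p = 2.17e-04), both against Vehicle.

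A region at an annotated internal start of Smarca2, chr19:26747554-26748815, followed the same order at a higher level. It had 4.33 and 4.18 with Combo and 4.00 and 4.01 with LSD1i, against 2.39 and 2.20 with Vehicle. Values were 2.54 and 2.5 with 6MP, 2.72 and 2.69 with CER, and 2.52 and 2.55 at Day0. The groups with GSK-LSD1 did not overlap the others. The log2 differences were 0.89 ± 0.14 for Combo (SE, adjusted p = 7.16e-05, limma) and 0.80 ± 0.14 for LSD1i (adjusted p = 4.43e-04). The main start of Smarca2, whose sequence is given above, had differences of -0.13 ± 0.21 for Combo and -0.32 ± 0.21 for LSD1i and was not called (adjusted p = 0.773 and 0.402).

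Hdac4 showed different patterns at 2 regions. In intron 2, at chr1:92082557-92083273, the relative signal was 0.562 and 0.646 with Combo and 0.724 and 0.825 with LSD1i, against 0.406 and 0.421 with Vehicle. It was 0.351 and 0.471 with 6MP, 0.406 and 0.360 with CER, and 0.364 and 0.315 at Day0. The libraries with GSK-LSD1 were again above all others. The LSD1i difference of 0.90 ± 0.22 passed (SE, adjusted p = 0.0103, limma) and the Combo difference of 0.54 did not (adjusted p = 0.139).
At 29.3 kb upstream, chr1:92225005-92225978, it was 1.28 and 1.33 with Combo, 1.07 and 0.869 with LSD1i, 1.26 and 1.38 with 6MP and 1.15 and 1.12 with CER, against 0.714 and 0.914 with Vehicle. Day0 had 0.853 and 0.890. Here the 6MP and CER libraries were also above both Vehicle libraries. The Combo difference was 0.69 ± 0.16 (SE, adjusted p = 0.00456, limma). The 6MP difference was 0.71 ± 0.16 (adjusted p = 0.312) and the CER difference 0.49 ± 0.16 (adjusted p = 0.164), against 0.25 for LSD1i (adjusted p = 0.390). The 6MP difference was thus as large as that of Combo, with the same SE. Their adjusted p-values differ because each is adjusted over all regions of its own contrast.

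Chd7, a remodeller of active enhancers, gained signal with Combo. At chr4:8842452-8843539, beside an internal start, it had 1.09 and 1.10 with Combo and 0.802 and 0.825 with LSD1i, against 0.534 and 0.664 with Vehicle. Values were 0.757 and 0.606 with 6MP, 0.664 and 0.697 with CER, and 0.636 and 0.452 at Day0. Both Combo libraries stood above all other libraries, and both LSD1i libraries above the remaining 8. The Combo difference was 0.88 ± 0.19 (SE, adjusted p = 0.00250, limma) and the LSD1i difference 0.45 (adjusted p = 0.173). A distal region at chr4:8888088-8888929 had 1.08 and 1.18 with Combo and 0.714 and 0.793 with Vehicle, with 0.922 and 1.03 for LSD1i, 0.932 and 1.06 for 6MP, 0.790 and 1.09 for CER and 0.845 and 0.959 at Day0. Its Combo difference was 0.58 ± 0.17 (SE, adjusted p = 0.0273, limma), and CER replicate 2 overlapped the Combo libraries. No RefSeq promoter window was at hand for Chd7.

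Weaker sites gained as well. The region assigned to Sirt6, an NAD-dependent deacetylase, at chr10:81619769-81620813 lies in an exon of a neighbouring gene. It had 0.362 and 0.329 with Combo and 0.259 and 0.343 with LSD1i, against 0.173 and 0.121 with Vehicle. It had 0.217 and 0.178 at Day0, 0.284 in 6MP replicate 1 and 0.175 in CER replicate 1, and no peak in the other 6MP and CER libraries. All 4 libraries with GSK-LSD1 were above Vehicle and Day0, while 6MP replicate 1 lay among them. The differences were 1.25 ± 0.31 for Combo (SE, adjusted p = 0.0101, limma) and 1.04 ± 0.31 for LSD1i (adjusted p = 0.0441). The Smarce1 region at chr11:99188806-99189847 had 0.825 and 0.768 with Combo and 0.983 and 1.01 with LSD1i, against 0.564 and 0.600 with Vehicle. The other groups spread from 0.471 to 0.820 there. Both LSD1i libraries and, by a small margin, Combo replicate 1 (0.825) were above every library without GSK-LSD1, and Combo replicate 2 (0.768) was not. Its LSD1i difference was 0.78 ± 0.22 (SE, adjusted p = 0.0260, limma). The distal Kmt5b region at chr19:3746339-3747458 had 0.294 and 0.335 with Combo and 0.491 and 0.453 with LSD1i, against 0.211 and 0.271 with Vehicle and 0.225 and 0.288 at Day0. Its LSD1i difference was 0.98 ± 0.28 (SE, adjusted p = 0.0309, limma), and the Combo difference of 0.39 did not pass (adjusted p = 0.464).

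The regions that lost signal included bromodomain, acetyltransferase, demethylase and Tet genes. An exonic region of Brd9, a subunit of the non-canonical SWI/SNF complex, at chr13:73955350-73956304 had 0.756 and 0.610 with Combo and 0.793 and 0.810 with LSD1i, against 1.11 and 1.36 with Vehicle. Values were 1.08 and 1.15 with 6MP, 0.741 and 0.910 with CER, and 0.853 and 1.08 at Day0. The groups with GSK-LSD1 lay below Vehicle, 6MP and Day0 but overlapped CER. The differences were -0.85 ± 0.17 for Combo (SE, adjusted p = 0.00137, limma) and -0.61 ± 0.17 for LSD1i (adjusted p = 0.0293).

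The Kat8 start, the acetyltransferase of H4 lysine 16 whose sequence is given above, had 2.07 and 2.25 with Combo and 1.87 and 1.57 with LSD1i, against 2.80 and 2.26 with Vehicle. It had 2.34 and 2.51 with 6MP, 2.97 and 2.99 with CER, and 2.44 and 2.29 at Day0. The LSD1i libraries were the lowest of the 12. The LSD1i difference was -0.55 ± 0.14 (SE, adjusted p = 0.0178, limma) and the Combo difference -0.22 (adjusted p = 0.430). An annotated internal start of Tet3, which oxidises methylcytosine, had 0.775 and 0.768 with Combo. LSD1i gave 0.810 and 0.599 there, against 1.2 and 0.971 with Vehicle. It had 0.892 and 1.10 with 6MP, 0.951 and 0.966 with CER, and 1.24 and 1.01 at Day0. Its libraries with GSK-LSD1 were below all 8 others, with a difference of -0.63 ± 0.17 for LSD1i (SE, adjusted p = 0.0261, limma) and -0.48 for Combo (adjusted p = 0.0900). A more open Tet3 start upstream, at chr6:83455351-83457654, had a smaller fold in the authors' LSD1i table, -0.39 against -0.72 at the internal start.

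A region downstream of Brd2, at chr17:34109098-34110123, had 0.175 and 0.177 with Combo and 0.259 and 0.248 with LSD1i, against 0.338 and 0.386 with Vehicle. It had 0.392 and 0.494 with CER, 0.33 in both Day0 libraries, and 0.346 in 6MP replicate 2, the only 6MP library with a peak. The Combo libraries were the lowest of all. Its Combo difference was -1.04 ± 0.26 (SE, adjusted p = 0.0110, limma), and the LSD1i difference of -0.51 did not pass (adjusted p = 0.276). Kdm4a, an H3 lysine 9 and 36 demethylase, had differences of -0.45 for Combo (adjusted p = 0.0479) and -0.51 ± 0.14 for LSD1i (SE, adjusted p = 0.0314, limma). A region assigned to Kdm2b, an H3 lysine 36 demethylase of CpG islands, lies in an exon of another annotated gene. It had -0.48 ± 0.13 for LSD1i (SE, adjusted p = 0.0290, limma) and -0.41 for Combo (adjusted p = 0.0593). An intron of Hdac7 had -0.47 ± 0.15 for Combo (SE, adjusted p = 0.0438, limma) and -0.44 for LSD1i (adjusted p = 0.074).

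**Figure D3:**
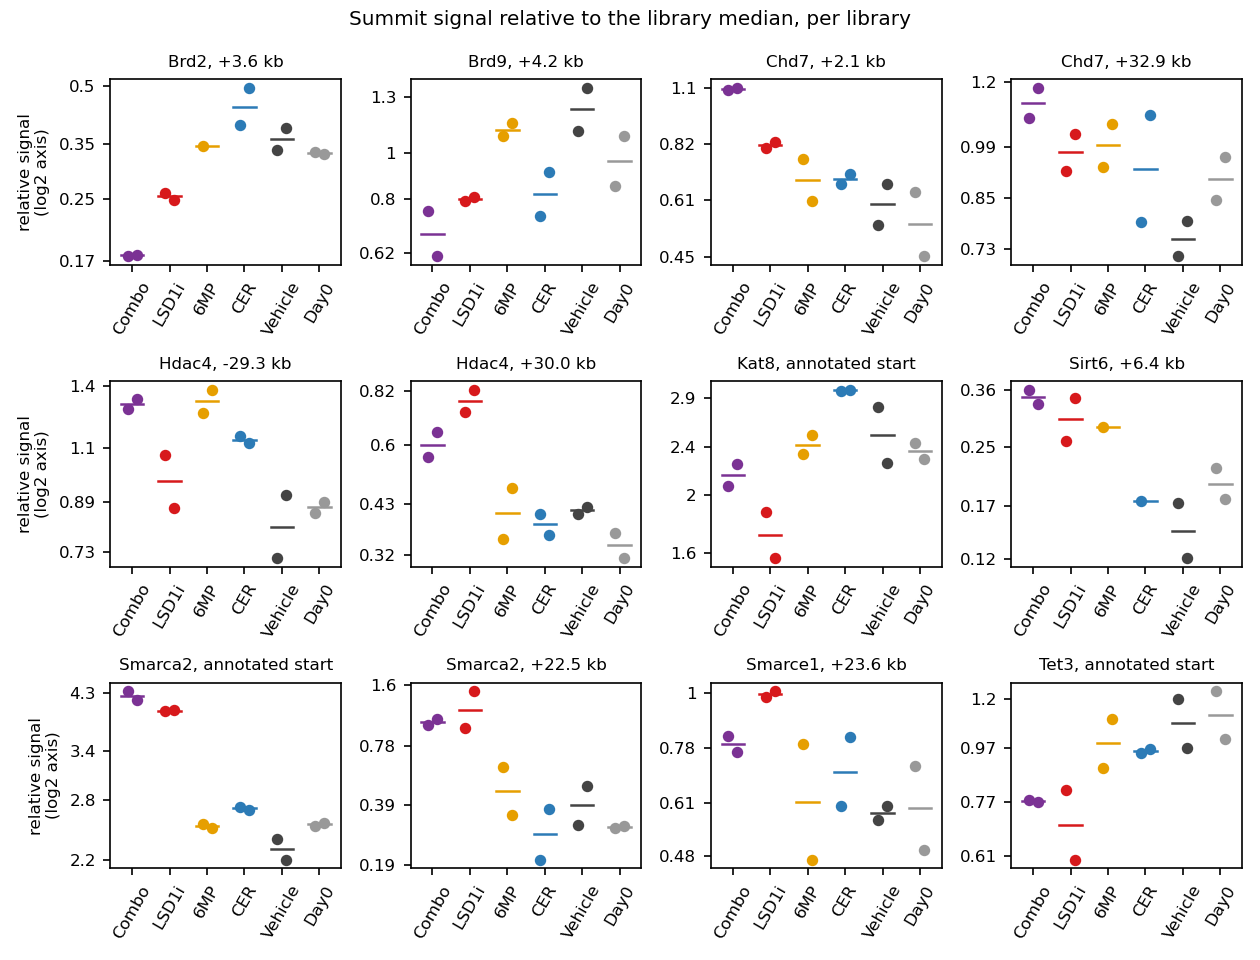
Relative signal per library (log2 axis, 1 is the library's median over regions called in all libraries) at 12 member regions with low adjusted p, 1 point per library and a bar at the group's geometric mean. Titles give the distance to the nearest annotated start. At both Smarca2 regions and at Hdac4 +30.0 kb the 4 Combo and LSD1i points lie above the other 8.

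The single agents without GSK-LSD1 gave no call among the members. Every member region was listed for LSD1i or Combo, the table for 6MP was not used and CER listed no member. The members were thus not chosen to show changes with 6MP or CER alone. Among 149 unlisted regions nearest to these genes, CER against Vehicle called 1 opened and 1 closed. The library 6MP replicate 1 also had the lowest signal over background, 16.9. For 6MP against Vehicle limma called 0 of 138, with 7 at an unadjusted p under 0.05, where 5.20% of all regions had that. No region at all was called, 0% in each direction. For CER, 0 of 136 were called, with 17 at an unadjusted p under 0.05 against 11.9% of all regions, and 0.148% of all regions were opened and 0.177% closed. For Vehicle against Day0, 0 of 142 were called with 17 at that level, against 10.8% of all, with 0.0736% and 0.0101% of all regions opened and closed. Combo against LSD1i called 0 of 139, with 8 at that level against 9.86% of all, and 0.0824% of all regions opened and 0.0183% closed. The regions opened by Combo and not listed for LSD1i were thus not shown to differ between these groups.

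Setting the 4 libraries with GSK-LSD1 (Combo and LSD1i) against the 6 day 2 libraries without it (6MP, CER and Vehicle) called 7 opened and 35 closed of 128 tested. Over all regions 9.90% were opened and 14.9% closed, and an unadjusted p under 0.05 was found for 62 of the 128 and for 37.5% of all. This contrast uses the libraries that chose the members, so its counts are a description: 30.2% of the members listed as closed for LSD1i were called, and 29.8% of all rows listed so. The split rests on the centring: with depth scaling it was 7 opened and 0 closed, and with centring by intensity 7 opened and 19 closed. Without 6MP replicate 1 it was 90 calls, and without LSD1i replicate 2 or Combo replicate 1 it was 19 or 23.

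The listing for LSD1i used LSD1i and Vehicle libraries only, so its rows could be tested in Combo against 6MP and CER. The difference of that contrast uses none of those libraries, while the spread behind its SE and p-values was estimated from all 12 libraries. Of 5 testable regions listed as opened for LSD1i, all 5 were higher in Combo and 4 were called: Smarca2 intron 5 (1.54 ± 0.24, SE, adjusted p = 4.16e-05, limma), the internal Smarca2 start (0.71 ± 0.12, adjusted p = 2.25e-04), Hdac4 intron 2 (0.61 ± 0.19, adjusted p = 0.0339) and the Kmt5b region 13.1 kb upstream (0.57 ± 0.18, adjusted p = 0.0419). The Smarce1 region had 0.28 (adjusted p = 0.354). The median of these 5 was 0.61, against 0.73 over all opened LSD1i rows, of which 67.6% were called in that contrast. Over all regions 5.28% were opened and 5.64% closed, and 34 of 131 members and 26.1% of all had an unadjusted p under 0.05. All 4 called regions are also in the Combo table, which shares the Combo libraries with this contrast.

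Of 119 testable regions listed as closed for LSD1i, 111 were lower in Combo than in 6MP and CER, with a median log2 difference of -0.20, which turned to 0.40 with pileups scaled by depth and shrank to -0.06 with centring by intensity. Over all closed LSD1i rows the median was also -0.20. Limma called 12 of the 119 closed (10.1%), where 11.0% of all closed rows were called. The 12 include the starts of Dnmt3a (-0.50 ± 0.13, SE, adjusted p = 0.0102, limma), Hdac3 (-0.43 ± 0.12, adjusted p = 0.0193), Hdac5 and Hdac10. They also include the exonic region of Brd9 (-0.50 ± 0.15, adjusted p = 0.0289) and the exonic region assigned to Kdm2b (-0.45 ± 0.12, adjusted p = 0.0113). By class, the closed calls were 7 of 25 deacetylase regions, 2 of 22 demethylase, 1 of 12 DNA methylation, 1 of 12 bromodomain, 1 of 31 remodeller, 0 of 19 methyltransferase and 0 of 10 acetyltransferase regions, and the difference between classes was not tested. The 99 closed promoters had a median of -0.19 with 8 called, and the 20 closed regions elsewhere -0.30 with 4 called. Without 6MP replicate 1 the contrast had 71 calls in place of 18, without CER replicate 2 it had 9, and without either Combo replicate it had 3.

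**Figure D4:**
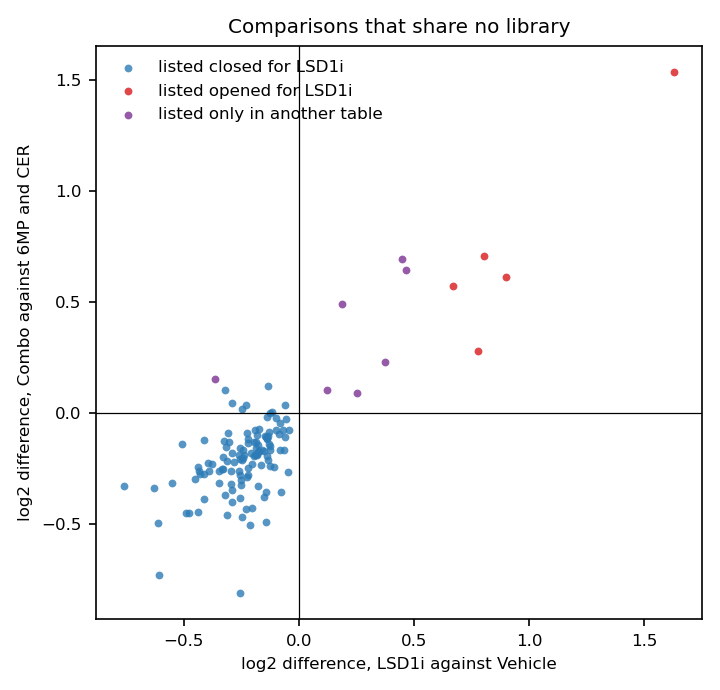
Log2 difference of each member region in Combo against 6MP and CER (vertical) and in LSD1i against Vehicle (horizontal), comparisons that share no library. Colours give the listing. The 5 regions listed as opened for LSD1i lie in the upper right and Smarca2 intron 5 stands apart at 1.63 and 1.54, while most closed regions lie in the lower left.

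Across the 128 member regions with both values, the differences in LSD1i against Vehicle and in Combo against 6MP and CER had a Pearson r of 0.84 and a Spearman rho of 0.59. Among the 116 closed regions r was 0.46 and rho 0.50, and over 34229 regions of the genome 0.71 and 0.62. The points share their libraries, so these values describe the regions and are not a test. In the reverse direction, 12 regions listed as opened for Combo could be tested in LSD1i against 6MP and CER. Its difference uses none of the Combo table's libraries, while the spread was again estimated from all libraries. Of these, 6 were called opened and 1 closed, with a median of 0.43, against 0.37 and 41.9% called over all opened Combo rows. Over all regions this contrast called 7.20% opened and 9.51% closed, and 47 of 128 members and 30.9% of all had an unadjusted p under 0.05. The closed one was intron 1 of Kmt2c (-0.77 ± 0.25, SE, adjusted p = 0.0318, limma). The Chd7 region in intron 3 was called in this contrast at 0.66 ± 0.17 (SE, adjusted p = 0.00763, limma), and the Chd7 region beside the internal start, at 0.26, was not (adjusted p = 0.289). The Hdac4 region 29.3 kb upstream was lower in LSD1i than in 6MP and CER by -0.35 (adjusted p = 0.079).

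The called peaks behind these regions come from the libraries that the tables compare, so they describe the listed regions and add no test. At the 25 regions listed as opened in any table, both Combo libraries had 25 of 25 peaks and the LSD1i libraries had 21 and 23, against 15 to 20 in the other libraries. The libraries also differed in their total of called peaks. Combo had 55713 and 55630 and LSD1i 50733 and 56398, against 42651 to 53839 in the others. The part of that difference in these counts was not tested, and the same count over all opened rows was not made. Peaks were present in all 12 libraries at 14 of the 25. The Kat5 region at chr19:5620154-5620794 had a peak in both Combo libraries only, with pileups of 31 and 35. The Hdac4 region 55.1 kb upstream, at chr1:92250778-92251489, had peaks with pileups of 32 and 20 in Combo and 26 and 25 in LSD1i, and in no other library. Setd3 intron 1 had peaks in both Combo libraries and LSD1i replicate 2. A Kmt2c intron had peaks in Combo and Day0 only. At the 138 regions listed as closed, Combo had 130 and 130 peaks, LSD1i 124 and 127, and Vehicle 137 and 138. Of the other groups without GSK-LSD1, 6MP had 127 and 133, CER 134 and 125, and Day0 136 and 127. Most closed regions thus kept a called peak, and the libraries without GSK-LSD1 overlapped those with it.

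**Figure D5:**
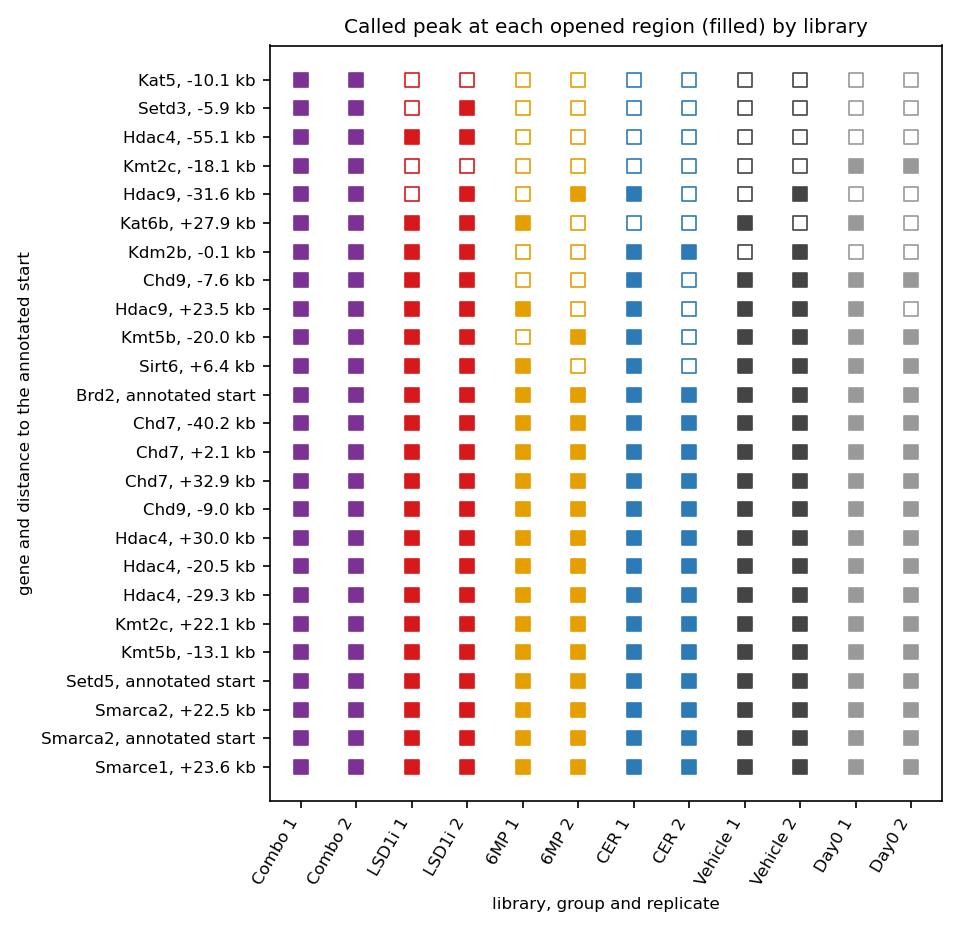
Called peaks (filled squares) at the 25 regions listed as opened in any table, by library (horizontal), with regions (vertical) named by gene and distance to the nearest annotated start. Both Combo columns are filled throughout, and the upper rows show regions with peaks in as few as 2 libraries.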

How the data were processed

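ATAC-seq libraries of 12 cultures were read from the deposited peak lists and tables of changed regions on mm10. The submitters' processing notes name DiffBind, MACS2 2.1.2, Bowtie2, Trimmomatic 0.38, Picard 2.18.26 and SAMtools 1.9. Their settings, filters, the treatment of the transposase offset and the scaling of the tables are not given in the sources used here. The peak lists hold, as deposited by the authors in the MACS2 layout, a score per peak, the fold of the summit pileup over its local background (a ratio) and −log10 p-values and q-values at the summit. The tables of changed regions hold the authors' mean log2 levels per group, their log2 fold, and a p-value and FDR, with rows at FDR 0.05 or less and gene names from the authors' annotation.

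Each summit's whole fragment pileup was recovered from the deposited fold and −log10 p, whole within 0.001 on the −log10 scale for 100.0% of summits. Peaks of all libraries were merged into regions. The highest summit of a region was divided by the library background, log2 transformed and centred on the median of regions called in all 12 libraries. limma 3.58.1 (R 4.3.3, eBayes with a mean-dependent prior) was fitted to all groups at once, with no replicate block, for regions with a peak in every library compared, and p-values were adjusted over all regions tested (two-sided). A region without a peak in a compared library was left out of that fit. The fit was tested on simulated data. With 2 libraries against 2 an exact test cannot go below p = 0.333, so no such test is given.

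The members and lists were chosen with earlier results of these data known. The contrasts against 6MP and CER together were chosen after seeing the data. Regions are named by the highest and lowest deposited fold of each class and by limma's calls. Per-library values are given for the lowest adjusted p. The values of 1 member gene are not reported here. Promoter windows come from RefSeq (GRCm38.p6), used since no genome sequence was at hand. Alternatives covered scaling, missing peaks, summit choice, the libraries in the fit, a letter that ends some library names and each replicate left out. Pileups are PCR-amplified fragments, so their number does not count independent molecules.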

Additional observations from a re-analysis of the deposited data

How the results depend on the processing

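Counts of called member regions moved with the scaling and with single libraries. With pileups scaled by depth the calls were 1 for LSD1i, 2 for Combo, 7 for GSK-LSD1 present against absent, 7 for Combo against 6MP and CER and 2 for LSD1i against 6MP and CER. The median of the closed LSD1i rows in Combo against 6MP and CER then reversed to 0.40, that of the opened LSD1i rows was 1.21, and that of the opened Combo rows in LSD1i against 6MP and CER was 0.65. With centring by intensity the closed median was -0.06 and GSK-LSD1 present against absent had 26 calls. With missing peaks set to the smallest pileup the calls were 7 for LSD1i, 1 for 6MP, 1 for CER, 11 for Combo against 6MP and CER and 19 for LSD1i against 6MP and CER. With the mean over summits they were 2, 4 and 21 for LSD1i, Combo and GSK-LSD1 present, 3 for Combo against 6MP and CER, and 9 for LSD1i against 6MP and CER. A term for the letter that ends some library names, whose meaning the labels do not give, gave 8 for Vehicle against Day0, 1 for 6MP, 2 for CER, 17 for Combo and 17 for LSD1i against 6MP and CER. A fit of only the libraries compared gave 5 for Combo against LSD1i. The cause of these moves was not tested. Listed rows with an absolute log2 fold of at least 1 numbered 0 for Vehicle against Day0, 7 for LSD1i and 11 for Combo, LSD1i rows counted by gene came to 83, and Combo promoter rows to 3.

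Leaving out 1 replicate gave 0 to 7 calls for Vehicle against Day0, 2 to 13 for LSD1i, 0 for 6MP, 0 to 4 for CER, 3 to 8 for Combo, 0 for Combo against LSD1i, 19 to 90 for GSK-LSD1 present, 3 to 71 for Combo against 6MP and CER and 6 to 77 for LSD1i against 6MP and CER. The highest 3 came without 6MP replicate 1, the library with the lowest signal over background, and the 7 and 4 without Vehicle replicate 1. The last contrast had 7 and 6 calls without LSD1i replicate 1 or 2 and 18 and 19 without CER replicate 1 or 2. The medians ran from -0.29 to -0.10, from 0.51 to 0.70 and from 0.30 to 0.49. Where an arm kept 1 library, it was assumed to vary like the other groups. Same-numbered libraries of different groups had correlations of their deviations from -0.344 to 0.246. The letter R ends the names of Vehicle and CER replicate 1 and of 6MP and Combo replicate 2. Vehicle and CER had a correlation of 0.246, and 6MP and Combo 0.139. The other pairs of these groups were all negative, from -0.344 to -0.0382. What same-numbered or same-lettered libraries share was not tested. A replicate block gave 10 calls for LSD1i and 9 for Combo, losing Sirt6 for LSD1i (adjusted p = 0.0508) and Kdm4a for Combo (adjusted p = 0.0572).

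Of 248 alternative values for the 21 named results none reversed, 150 kept their call and 98 lost it. With depth scaling 18 of the 21 lost their call, and Smarca2 intron 5 in both comparisons and Sirt6 with Combo kept it. Pileups of weak peaks are small whole numbers, so their differences are the least precise.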

Other observations

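Other regions nearest to these genes, which the tables used do not list under these gene names, were also called by limma. Whether the tables list them under another gene's name was not checked. For LSD1i against Vehicle 4 were higher and 2 lower of 159 tested, and for Combo 4 were higher and 2 lower of 170 tested. Over all tested regions 3.82% were higher and 2.00% lower for LSD1i, and 4.79% and 2.93% for Combo. That background keeps the listed regions, while the members' listed regions were left out here, so the shares cannot be compared. The regions named here were picked for their adjusted p, so they carry no further test. A region of Hdac4 at chr1:92034176-92034995 was higher by 1.06 ± 0.19 on the log2 scale with Combo (SE, adjusted p = 4.35e-04, limma) and by 0.66 ± 0.19 with LSD1i (adjusted p = 0.0367), both against Vehicle. A region of Hdac9 at chr12:34847371-34848491 was higher by 0.66 ± 0.19 with Combo (adjusted p = 0.0298) and 0.63 ± 0.19 with LSD1i (adjusted p = 0.0499).

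Tet2, a methylcytosine dioxygenase, had regions of both directions. At chr3:133435873-133437319 the difference was 1.21 ± 0.27 for Combo (SE, adjusted p = 0.00374, limma) and 1.71 ± 0.27 for CER (adjusted p = 0.00734), both against Vehicle, and LSD1i was lower than 6MP and CER there, at -0.99 ± 0.24 (adjusted p = 0.00393). At chr3:133626358-133627319 LSD1i was lower than Vehicle, at -0.63 ± 0.16 (adjusted p = 0.0177). A distal region of Chd7 at chr4:8942755-8943481 was lower with Combo, at -1.24 ± 0.28 (adjusted p = 0.00404), opposite in sign to the listed Chd7 regions of that comparison.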
